A study of Mus musculus with 6 samples.

Results

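The genes of mitochondrial ribosomal proteins were followed in the inguinal fat of cold-exposed mice with and without the transcription factor gene Atf4 in adipocytes. They were taken as every row of the deposited expression table whose symbol is Mrpl or Mrps followed by a number. The rule used symbols and no measured value, and it found 77 of the 23997 genes of the table. By the letter in the symbol, 48 belong to the large subunit (Mrpl) and 29 to the small subunit (Mrps). All 77 passed the filter used for testing, which asks for a mean FPKM of 0.5 or more. FPKM is the number of sequenced fragments of a gene scaled to transcript length and to the total of mapped fragments, so levels of different genes can be compared.

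Messenger RNA of inguinal white adipose tissue (iWAT) was sequenced in 6 libraries. The 3 Atf4AKO libraries came from mice that carried floxed Atf4 and Cre recombinase driven by the adiponectin promoter (AdipoqCre), which is active in adipocytes, so the other cells of the tissue keep Atf4. The 3 Atf4WT libraries came from mice with floxed Atf4 and no Cre. All mice of both groups lived at 22 °C and then spent 12 h at 5 °C, and no library at 22 °C alone was analysed here. Strain, sex, age and the number of animals per library are not given in the labels, so the p-values below measure the spread between these libraries. Cre was present in every Atf4AKO library and in no Atf4WT library, so its own effect and that of the loss of Atf4 cannot be told apart.

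The mitochondrial ribosome translates the few messenger RNAs that mitochondrial DNA encodes, all of them for subunits of the respiratory chain and ATP synthase. Its proteins are encoded in the nucleus, made in the cytosol and imported, and they assemble on ribosomal RNA made inside the mitochondrion. Adipocytes that turn on heat production in the cold hold many mitochondria, and they need this machine to build the respiratory chain. ATF4 is a transcription factor of the integrated stress response, which faults of mitochondrial translation are known to switch on.

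Atf4 itself stood at 152, 140 and 114 FPKM in the Atf4AKO libraries and at 258, 323 and 317 FPKM in the Atf4WT libraries. The groups did not overlap, and the log2 change (Atf4AKO minus Atf4WT) was −1.14 ± 0.16 (SE, n = 3 each), with an adjusted p of 0.490 in limma and p = 0.1 in the exact two-sided permutation test, the smallest that 3 against 3 libraries can give. All 20 adipocyte markers were above 0 in every library. Summed FPKM over the whole table ran between 615141 and 717778 in the Atf4AKO libraries and between 524158 and 625418 in the Atf4WT libraries, with the lowest sum in Atf4WT 1. Skeletal muscle markers set some libraries apart: 18 tested genes averaged 2.72, 3.93 and −2.80 in Atf4AKO 1, 2 and 3, and −2.26, 1.09 and −2.66 in Atf4WT 1, 2 and 3, as log2 levels relative to the mean of the 6 libraries.

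The members spanned a wide range of levels. Mean FPKM over the 6 libraries ran between 2.94 for Mrpl19 and 152 for Mrps21, with a median of 33.5 FPKM in the large subunit and 34.4 FPKM in the small subunit. The highest large-subunit genes were Mrpl20 (147 FPKM), Mrpl33 (129 FPKM), Mrpl51 (117 FPKM) and Mrpl30 (115 FPKM), and the lowest were Mrpl1 (8.34 FPKM), Mrpl57 (7.90 FPKM) and Mrpl19. In the small subunit Mrps21 stood above Mrps18b (75.3 FPKM), Mrps18a (69.1 FPKM) and Mrps18c (67.4 FPKM), and the lowest were Mrps25 (9.69 FPKM), Mrps11 (9.18 FPKM) and Mrps27 (7.95 FPKM).

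No member passed the test for a difference between the genotypes. With limma on log2(FPKM + 1) and Benjamini-Hochberg adjustment over 12818 tested genes, 0 members were called higher and 0 lower, where 0.0156% of all tested genes were called higher and 0.0% lower. The lowest adjusted p of a member was 0.50. By unadjusted p under 0.05, 1 member (Mrpl22) passed, against 9.95% of all tested genes. The median log2 change was 0.04 over the 48 large-subunit genes and 0.06 over the 29 small-subunit genes, beside 0.0046 over all tested genes. The sign was positive in 28 and negative in 20 large-subunit genes, and positive in 18 and negative in 11 small-subunit genes. Of all tested genes, 50.6% had a positive sign. The changes of the members ran between −0.29 and 0.41, and the median SE was 0.17. The 95% interval of the change was −0.24 to 0.24 for Mrpl1, the member of narrowest range, and −0.76 to 0.72 for Mrpl12, among those of widest range. In bulk tissue, fewer cells of a type and less RNA per cell cannot be told apart. The sign of both medians was not stable. Without Atf4WT 1 they were −0.15 for the large and −0.10 for the small subunit, without Atf4AKO 2 they were −0.03 and −0.01, and without Atf4WT 2 they were 0.14 and 0.16. With all libraries rescaled to the same sum they were −0.11 and −0.082, beside −0.13 over all tested genes.

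**Figure D1:**
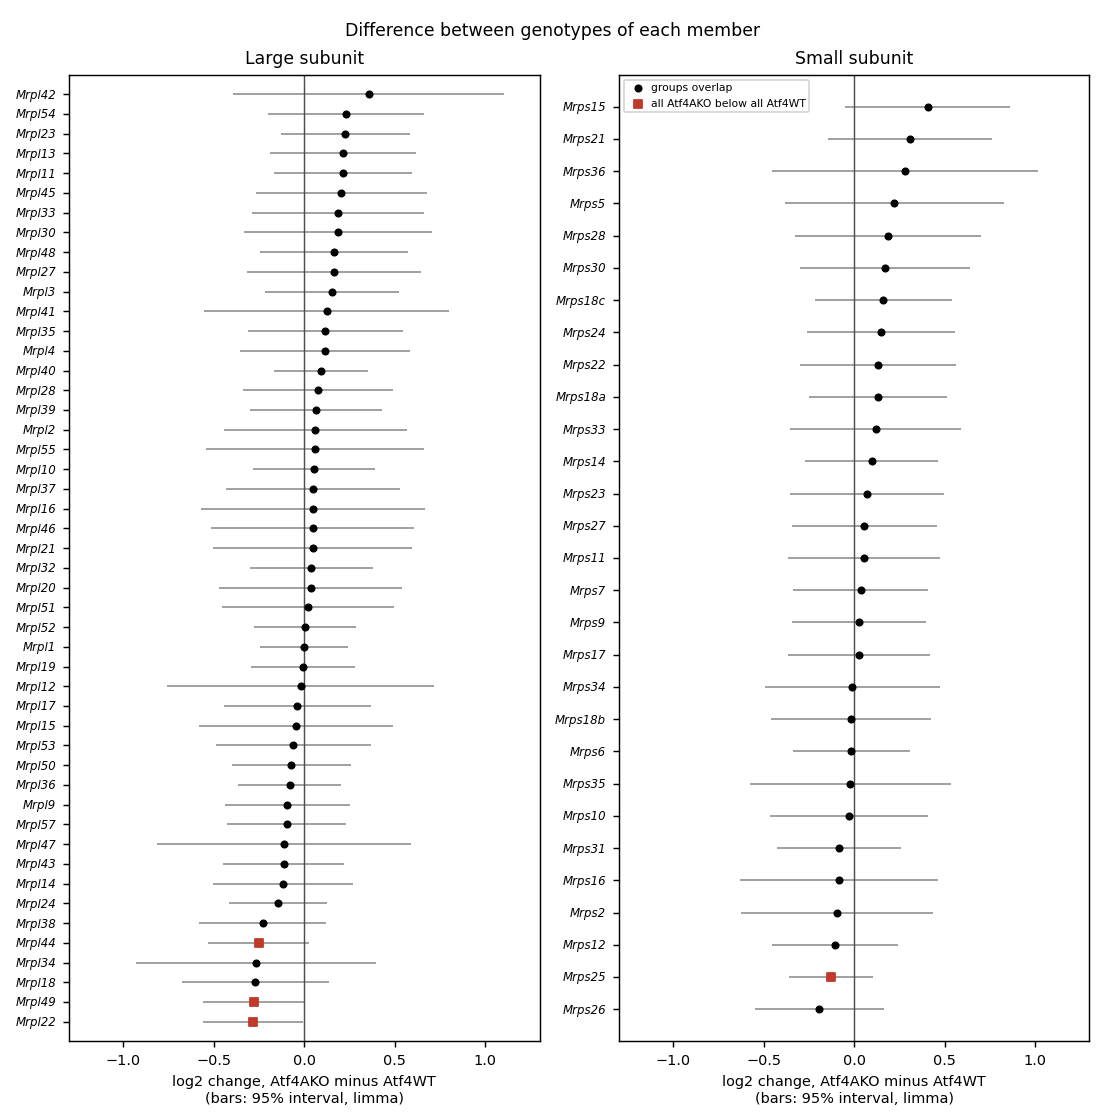
Log2 change (Atf4AKO minus Atf4WT) of each of the 77 members, from log2(FPKM + 1) values (points), with the 95% interval of limma (bars, n = 3 per group), large subunit left and small subunit right. Red squares mark the 4 members whose Atf4AKO libraries all lie below all Atf4WT libraries; the points lie between −0.29 and 0.41.

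The groups did not overlap in 4 members, Mrpl22, Mrpl44, Mrpl49 and Mrps25, all with the Atf4AKO libraries below. That is 3 of 48 large-subunit genes and 1 of 29 small-subunit genes, where 8.34% of all tested genes behaved so. In 0 members were all Atf4AKO libraries above, where 8.21% of all tested genes were. The share of members is below the background in both directions. Leaving out Atf4WT 1 gave 22 members with the Atf4AKO libraries below (background 14.8%), and leaving out Atf4WT 2 gave 15 members with them above (background 14.8%). Leaving out Atf4AKO 3 gave 4 members with the Atf4AKO libraries above and 5 below (background 20.6% in each direction). With Atf4AKO 3 as the only knockout library, 1 member was above (background 18.8%) and 7 were below (background 19.4%).

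Mrpl22, a protein of the wall of the tunnel through which the new chain leaves the ribosome, stood at 20.4, 17.9 and 20.7 FPKM in the Atf4AKO libraries and at 22.4, 26.5 and 23.6 FPKM in the Atf4WT libraries. Its log2 change was −0.29 ± 0.11 (SE, n = 3 each), with a limma unadjusted p of 0.0448 and an adjusted p of 0.50. Atf4AKO 2 was the lowest library and Atf4WT 2 the highest.

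Mrpl44, a large-subunit protein with a fold like that of ribonuclease III, stood at 11.8, 10.5 and 10.9 FPKM in the Atf4AKO libraries and at 11.9, 13.8 and 14.5 FPKM in the Atf4WT libraries. The closest libraries of the groups, Atf4AKO 1 and Atf4WT 1, were almost level. Its log2 change was −0.25 ± 0.12 (SE, n = 3 each) with a limma adjusted p of 0.504.

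Mrpl49, a large-subunit protein with no bacterial counterpart, stood at 7.22, 8.77 and 7.54 FPKM in the Atf4AKO libraries and at 9.10, 9.52 and 10.5 FPKM in the Atf4WT libraries. Its log2 change was −0.28 ± 0.12 (SE, n = 3 each) with a limma adjusted p of 0.50. Mrps25, of the small subunit, had the smallest change of the 4, with 8.86, 9.28 and 9.51 FPKM in the Atf4AKO libraries against 9.75, 10.6 and 10.2 FPKM in the Atf4WT libraries. Its log2 change was −0.13 ± 0.10 (SE, n = 3 each) with a limma adjusted p of 0.596. Each of these 4 gave p = 0.1 in the exact two-sided permutation test, and under the 17 alternatives to the test their signs stayed negative and their adjusted p-values ran between 0.258 and 1.0. Exons of 3 of them share bases with a gene on the other strand, Mrpl44 with Wdfy1, Mrpl49 with Syvn1 and Mrps25 with Nr2c2, and whether fragments were assigned by strand is not stated by the labels.

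**Figure D2:**
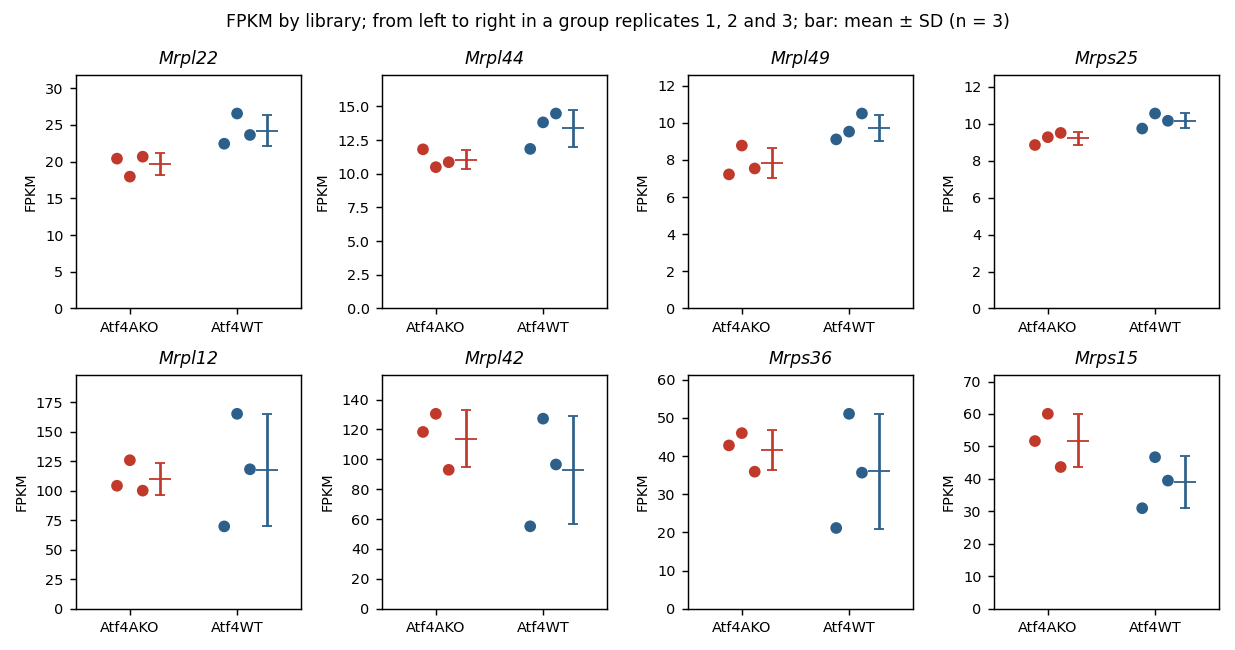
FPKM in each library (points, replicates 1 to 3 left to right in each group) with the mean ± SD (bars, n = 3) for the 4 members whose groups did not overlap (top) and for Mrpl12, Mrpl42, Mrps36 and Mrps15, which are among the members of widest range (bottom). In the top row the Atf4AKO points lie below the Atf4WT points; in the bottom row the groups overlap, and the Atf4WT points spread wider than the Atf4AKO points in Mrpl12, Mrpl42 and Mrps36.

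The promoters of these 4 members, and of Mrpl42 and Mrps36 from among the members of widest range, are printed below. No link between their letters and the levels of the genes was tested. Each is 300 bases on the gene's own strand, 250 before and 50 after the RefSeq start, in GRCm38.p6. Capitals mark matches to the short motifs described further on. The windows are chr11:58171414-58171713 on the plus strand for Mrpl22, chr1:79775768-79776067 on the plus strand for Mrpl44, chr19:6057706-6058005 on the minus strand for Mrpl49, chr6:92183974-92184273 on the minus strand for Mrps25, chr10:95501900-95502199 on the minus strand for Mrpl42 and chr13:100744610-100744909 on the minus strand for Mrps36.
Mrpl22: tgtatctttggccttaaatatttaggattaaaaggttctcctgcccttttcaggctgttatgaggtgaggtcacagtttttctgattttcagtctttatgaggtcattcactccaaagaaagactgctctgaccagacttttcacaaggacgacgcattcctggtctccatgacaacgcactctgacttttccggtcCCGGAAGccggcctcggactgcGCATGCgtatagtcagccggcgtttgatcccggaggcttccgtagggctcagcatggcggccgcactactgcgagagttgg
Mrpl44: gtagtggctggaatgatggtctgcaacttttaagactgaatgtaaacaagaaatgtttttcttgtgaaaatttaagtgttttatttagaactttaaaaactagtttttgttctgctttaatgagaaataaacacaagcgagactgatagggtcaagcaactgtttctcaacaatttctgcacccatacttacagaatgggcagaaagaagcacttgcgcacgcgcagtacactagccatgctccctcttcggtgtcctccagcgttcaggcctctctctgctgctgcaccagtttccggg
Mrpl49: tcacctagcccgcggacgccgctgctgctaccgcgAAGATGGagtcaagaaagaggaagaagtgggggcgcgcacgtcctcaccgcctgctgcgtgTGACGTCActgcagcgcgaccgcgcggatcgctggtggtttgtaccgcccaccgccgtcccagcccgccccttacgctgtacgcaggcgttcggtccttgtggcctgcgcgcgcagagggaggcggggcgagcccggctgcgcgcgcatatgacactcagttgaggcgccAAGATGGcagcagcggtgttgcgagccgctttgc
Mrps25: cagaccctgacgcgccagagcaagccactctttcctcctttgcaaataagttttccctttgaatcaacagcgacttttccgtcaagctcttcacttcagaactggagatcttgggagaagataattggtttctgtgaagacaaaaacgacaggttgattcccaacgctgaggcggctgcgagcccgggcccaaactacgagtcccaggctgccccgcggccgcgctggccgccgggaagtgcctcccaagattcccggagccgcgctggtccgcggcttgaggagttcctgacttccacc
Mrpl42: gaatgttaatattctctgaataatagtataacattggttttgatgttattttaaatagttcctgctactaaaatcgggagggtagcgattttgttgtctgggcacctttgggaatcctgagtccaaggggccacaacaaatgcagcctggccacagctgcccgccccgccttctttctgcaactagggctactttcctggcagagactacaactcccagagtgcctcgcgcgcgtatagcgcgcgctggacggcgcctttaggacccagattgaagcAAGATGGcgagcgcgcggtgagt
Mrps36: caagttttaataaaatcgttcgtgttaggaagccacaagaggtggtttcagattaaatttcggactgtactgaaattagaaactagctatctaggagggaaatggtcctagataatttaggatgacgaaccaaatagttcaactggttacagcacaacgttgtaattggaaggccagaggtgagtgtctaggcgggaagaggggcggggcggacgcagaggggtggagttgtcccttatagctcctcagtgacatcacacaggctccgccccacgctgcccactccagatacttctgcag
The Mrpl22 window holds an ETS core at −53 and an NRF1 core at −31, counted to the first base of the match with the start as 1. The Mrpl49 window holds a YY1 core at −215 and at 17, and a CRE core matched on both strands at −154 and −152. The Mrpl42 window holds a YY1 core at 28, and the windows of Mrpl44, Mrps25 and Mrps36 hold none of the motifs searched.

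Several members spread widely between libraries of the same genotype. Mrpl12, a stalk protein of the large subunit that has also been reported to bind the mitochondrial RNA polymerase, stood at 104, 126 and 100.1 FPKM in the Atf4AKO libraries and at 69.8, 165 and 118 FPKM in the Atf4WT libraries. Its highest library was 2.37 times its lowest, and both were Atf4WT. The group means were 110.1 ± 13.8 FPKM in Atf4AKO and 118 ± 47.7 FPKM in Atf4WT (SD, n = 3 each). Mrpl42 stood at 118, 130.4 and 93.0 FPKM in the Atf4AKO libraries and at 55.2, 127 and 96.5 FPKM in the Atf4WT libraries. Mrpl34 stood at 35.9, 29.5 and 31.8 FPKM in the Atf4AKO libraries and at 26.4, 58.5 and 38.1 FPKM in the Atf4WT libraries. In all 3 genes Atf4WT 1 was the lowest library, and in Mrpl12 and Mrpl34 Atf4WT 2 was the highest.

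The same order of libraries was seen in the small subunit. Mrps36, the member of widest range, stood at 42.8, 46.0 and 35.9 FPKM in the Atf4AKO libraries and at 21.2, 51.0 and 35.6 FPKM in the Atf4WT libraries. Mrps5 stood at 28.2, 34.4 and 30.4 FPKM in the Atf4AKO libraries and at 17.7, 36.0 and 28.6 FPKM in the Atf4WT libraries. In both genes Atf4WT 1 was the lowest and Atf4WT 2 the highest. Mrps15 had the largest positive change of any member, with 51.7, 60.1 and 43.7 FPKM in the Atf4AKO libraries and 31.0, 46.7 and 39.5 FPKM in the Atf4WT libraries. Its log2 change was 0.41 ± 0.19 (SE, n = 3 each), with a limma adjusted p of 0.504, and its groups overlapped. At the other end Mrpl1, a protein of the mobile L1 stalk, stood at 7.90, 8.32 and 8.79 FPKM in the Atf4AKO libraries and at 7.87, 8.51 and 8.63 FPKM in the Atf4WT libraries, the narrowest range of the 77.

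Over the whole set the libraries took a common order. The level of a list in a library is the mean over its genes of log2(FPKM + 1) minus the gene's own mean over the 6 libraries. For the large subunit it was −0.03, 0.10 and −0.05 in Atf4AKO 1, 2 and 3, and −0.31, 0.23 and 0.06 in Atf4WT 1, 2 and 3. For the small subunit it was −0.02, 0.17 and −0.05 in Atf4AKO 1, 2 and 3, and −0.35, 0.20 and 0.05 in Atf4WT 1, 2 and 3. Both subunits thus put Atf4WT 1 at the bottom and Atf4WT 2 at the top, with the Atf4AKO libraries between them, and the difference of group means was 0.02 for the large and 0.06 for the small subunit.

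Gene by gene, Atf4WT 1 was the lowest library in 63 of 77 members (81.8%; 22.9% of all tested genes). Atf4WT 2 was the highest in 40 (51.9%; 12.5% of all tested genes), and Atf4AKO 2 was the highest in 23 (29.9%; 21.3% of all tested genes). The Atf4WT libraries spread over a wider log2 range than the Atf4AKO libraries in 66 members (85.7%; 44.5% of all tested genes), with a median range of 0.27 in Atf4AKO and 0.54 in Atf4WT. In 38 members (49.4%; 6.54% of all tested genes) all Atf4AKO libraries lay between Atf4WT 1 below and Atf4WT 2 above. The members were measured in the same 6 libraries, so these counts describe 6 libraries and are not 77 independent observations. Of the members not lowest in Atf4WT 1, 6 were lowest in Atf4AKO 1, 3 in Atf4AKO 2 and 3 in Atf4AKO 3. Mrpl45 was lowest in Atf4WT 2, and Mrpl40 was lowest in Atf4WT 3.

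**Figure D3:**
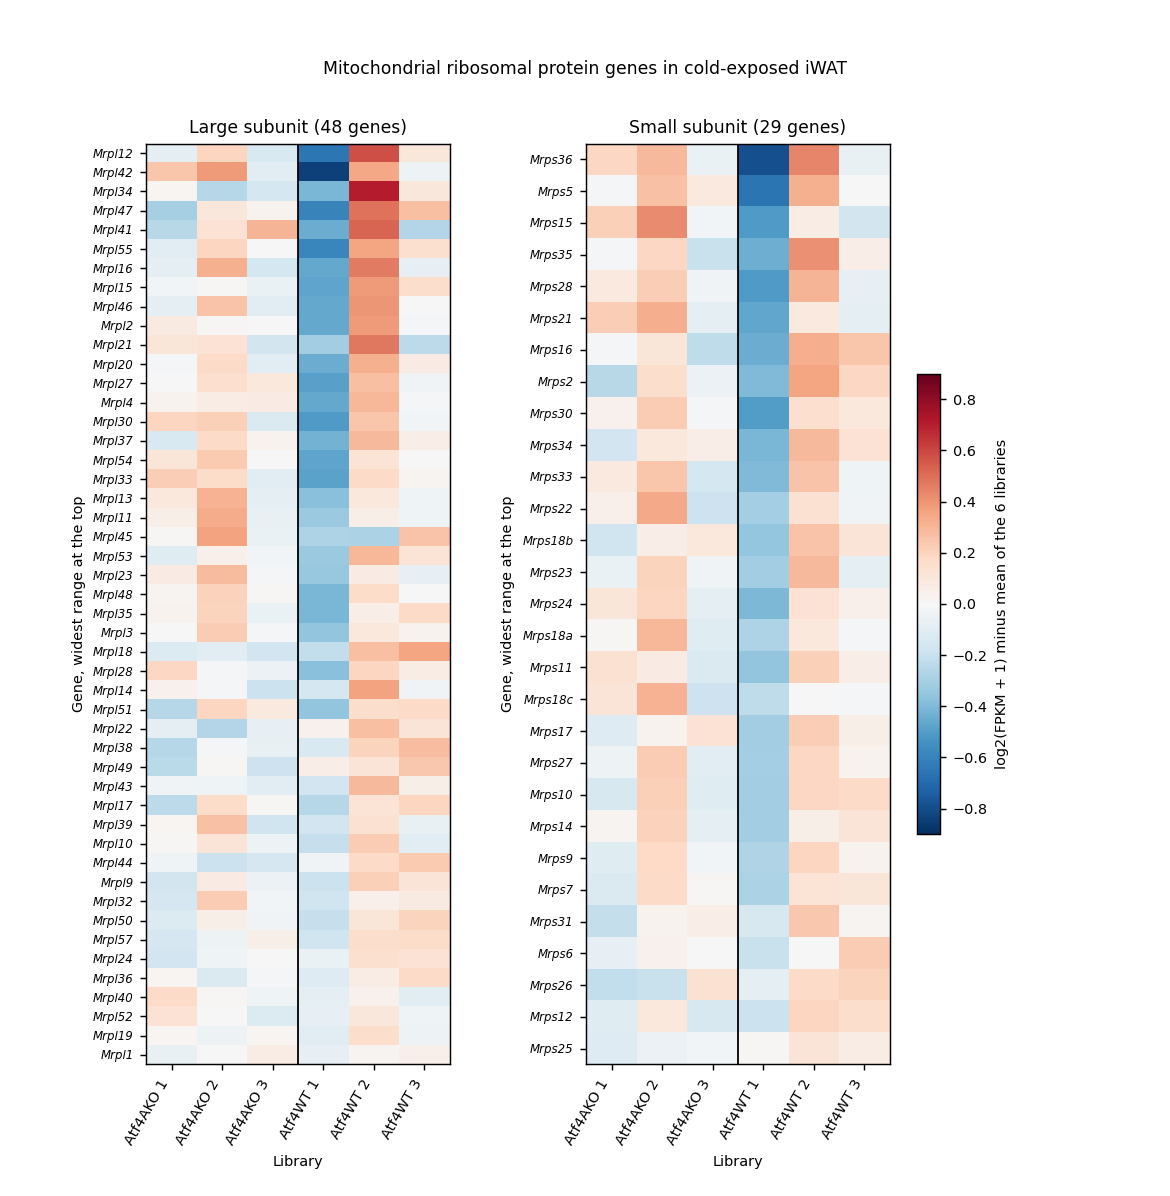
Log2(FPKM + 1) of each member minus its mean over the 6 libraries (colour), genes in rows by range with the widest at the top, libraries in columns with Atf4AKO left of the line and Atf4WT right of it. Atf4WT 1 is the lowest library in 63 of the 77 rows and above the row's mean (red) in only 3. Atf4WT 2 is above the row's mean in 75.

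In summed FPKM the 77 members made up 3324, 3713 and 3200 in Atf4AKO 1, 2 and 3, and 2551, 3908 and 3422 in Atf4WT 1, 2 and 3. As a share of all FPKM this was 0.540%, 0.517% and 0.517% in the Atf4AKO libraries and 0.487%, 0.625% and 0.563% in the Atf4WT libraries. The ratio of the large-subunit sum to the small-subunit sum was 1.80, 1.73 and 1.81 in Atf4AKO 1, 2 and 3, and 1.81, 1.88 and 1.81 in Atf4WT 1, 2 and 3. Atf4WT 1 had the lowest sum of the whole table, and how the libraries are scaled bears on its place. Median-of-ratios scaling divides each library by its median ratio to the genes' geometric means. With it Atf4WT 1 was the lowest library in 63 members (81.8%, against 22.7% of all tested genes). Atf4WT 2 was then the highest in 40 (51.9%, against 12.1% of all tested genes). With every library rescaled to the same sum, the median of all tested genes shifted to −0.13 and that of the members to −0.10. On that scale 19 members had a positive and 58 a negative sign, and all Atf4AKO libraries lay below in 14 members, against 13.9% of all tested genes. Rescaled in this way, Atf4WT 1 was the lowest library in 35 members (45.5%, against 8.59% of all tested genes). Atf4WT 2 was the highest in 41 (53.2%, against 10.2% of all tested genes). The level of all members was then −0.03, −0.09 and −0.06 in Atf4AKO 1, 2 and 3, and −0.11, 0.20 and 0.08 in Atf4WT 1, 2 and 3. Atf4WT 2 stayed at the top, but in the large subunit the lowest level was −0.11 in Atf4AKO 2, beside −0.09 in Atf4WT 1.

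Markers of heat-producing and of other cells moved across the same libraries. The 12 beige and brown adipocyte markers averaged 0.22, 0.20 and 0.24 in Atf4AKO 1, 2 and 3, and −1.61, 1.14 and −0.19 in Atf4WT 1, 2 and 3, with summed FPKM of 1525 to 1647 in Atf4AKO and 255 to 3904 in Atf4WT and none of them at 0. Ucp1, the uncoupling protein of thermogenic fat, stood at 456, 497 and 415 FPKM in the Atf4AKO libraries and at 15.5, 1370 and 211 FPKM in the Atf4WT libraries. By mean level, Atf4WT 1 was thus the lowest and Atf4WT 2 the highest library in these markers as in the ribosomal protein genes. Ebf2 and Prdm16 did not take this order, and the other markers of the list did. Ebf2 was lowest in Atf4AKO 1 (6.73 FPKM) and highest in Atf4AKO 3 (9.21 FPKM). Prdm16 was highest in Atf4WT 3 (1.55 FPKM), beside 1.35 FPKM in Atf4WT 2. The 20 adipocyte markers averaged −0.19, 0.41 and 0.08 in the Atf4AKO libraries and −0.43, 0.05 and 0.08 in the Atf4WT libraries. The 15 tested epithelial markers averaged −1.67, −1.14 and 0.82 in the Atf4AKO libraries and 2.71, 0.86 and −1.59 in the Atf4WT libraries, highest in Atf4WT 1, where their summed FPKM was 1089 with 2 of 18 at 0. Summed muscle markers were 23.7 to 10130 FPKM in Atf4AKO and 22.4 to 1058 FPKM in Atf4WT, and in Atf4WT 2 they were at 1058 FPKM with 1 of 20 at 0. The 16 tested macrophage markers averaged 2.03, 0.29 and −0.40 in the Atf4AKO libraries and −0.09, −0.71 and −1.12 in the Atf4WT libraries. The part of these cells in the order of the libraries was not tested.

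**Figure D4:**
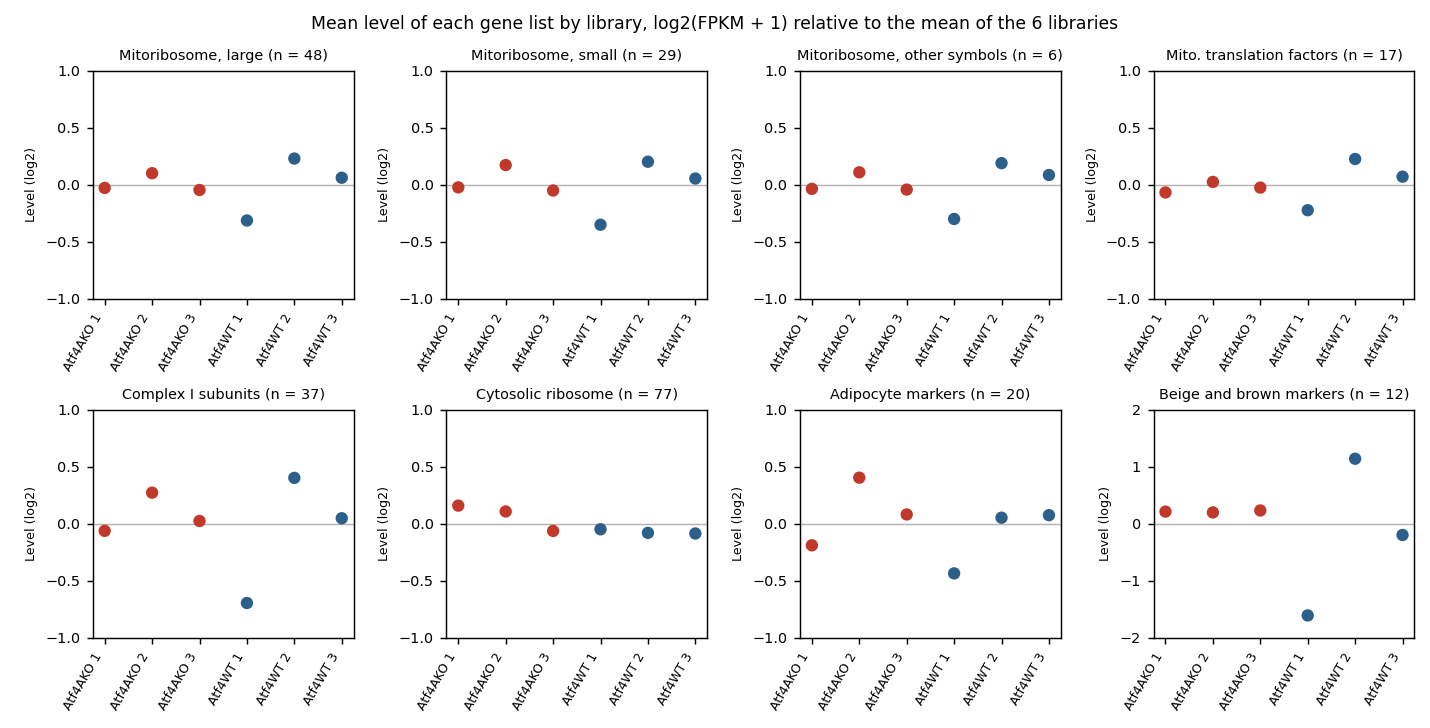
Mean log2 level of 8 gene lists in each library relative to the mean of the 6 libraries (red, Atf4AKO; blue, Atf4WT; n, genes in the list), with a wider vertical axis for the beige and brown markers. Both ribosomal subunits, the other mitoribosomal proteins and complex I put Atf4WT 1 at the bottom and Atf4WT 2 at the top, and the cytosolic ribosome stays between −0.08 and 0.16, all on the values as deposited (with equal sums its highest level is 0.18, in Atf4WT 1).

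The letter in a symbol is not always the place of the protein. In structures of the mammalian mitoribosome Mrps18a and Mrps30 lie in the large subunit, and Mrps36 has been assigned to the oxoglutarate dehydrogenase complex of the citric acid cycle. Counting the genes by structure left the medians at 0.05 for 50 large-subunit genes and 0.03 for 26 small-subunit genes. Mrps18a, Mrps18b and Mrps18c are paralogs that take different places in the ribosome. Mrps18a stood at 69.0, 84.6 and 63.5 FPKM in the Atf4AKO libraries and at 56.4, 73.4 and 67.8 FPKM in the Atf4WT libraries. Mrps18b stood at 65.9, 77.8 and 79.7 FPKM in the Atf4AKO libraries and at 58.3, 89.4 and 80.9 FPKM in the Atf4WT libraries. Mrps18c stood at 72.4, 83.3 and 58.7 FPKM in the Atf4AKO libraries and at 56.9, 66.8 and 66.3 FPKM in the Atf4WT libraries. The groups overlapped in all 3, with log2 changes of 0.13, −0.02 and 0.16 for Mrps18a, Mrps18b and Mrps18c. Mrps30 stood at 33.5, 38.2 and 32.2 FPKM in the Atf4AKO libraries and at 22.7, 36.2 and 34.8 FPKM in the Atf4WT libraries. Its groups overlapped too. The annotation names 3 pseudogenes after Mrps36 and 1 each after Mrpl23 and Mrpl48, and how fragments shared with such copies were assigned is not given, so the values of these genes are uncertain.

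The remaining named members overlapped between the genotypes as well, among them the most abundant. Mrps21 stood at 176, 188 and 141 FPKM in the Atf4AKO libraries and at 108, 160 and 141 FPKM in the Atf4WT libraries, with a log2 change of 0.31 ± 0.19 (SE, n = 3 each) and a limma adjusted p of 0.548. Mrpl20 stood at 143, 163 and 136 FPKM in the Atf4AKO libraries and at 106, 181 and 153 FPKM in the Atf4WT libraries, with a log2 change of 0.04. In both genes Atf4WT 1 was the lowest library, while the highest was Atf4AKO 2 in Mrps21 and Atf4WT 2 in Mrpl20. Mrpl33, Mrpl51 and Mrpl30 had log2 changes of 0.19, 0.02 and 0.19. Among the least abundant, Mrpl57 and Mrpl19 had log2 changes of −0.10 and −0.01, and Mrps11 and Mrps27, a small-subunit protein with pentatricopeptide repeats, each had 0.06. Mrps11 and Mrpl46 are transcribed from opposite strands and share exon bases.

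On the values as deposited, mitoribosomal proteins with other symbols had the same lowest and highest library as the members. With equal sums their lowest level was −0.10 in Atf4AKO 2, beside −0.08 in Atf4WT 1. The 6 genes of this list, Dap3, Ptcd3, Chchd1 and Aurkaip1 of the small subunit and Gadd45gip1 and Ict1 of the large subunit, averaged −0.04, 0.11 and −0.04 in Atf4AKO 1, 2 and 3, and −0.30, 0.19 and 0.08 in Atf4WT 1, 2 and 3. By limma 0 of 6 were called in either direction and 0 had an unadjusted p under 0.05 (9.95% of all tested genes did), 4 had a positive and 2 a negative sign, and in 0 did the groups separate, against 8.34% below and 8.21% above of all tested genes. Dap3, a GTP-binding protein of the small subunit, stood at 9.68, 10.7 and 8.55 FPKM in the Atf4AKO libraries and at 8.29, 10.2 and 9.16 FPKM in the Atf4WT libraries. Ptcd3 stood at 18.5, 23.2 and 20.4 FPKM in the Atf4AKO libraries and at 18.1, 25.8 and 23.5 FPKM in the Atf4WT libraries. Both were lowest in Atf4WT 1. Log2 changes were 0.17 for Chchd1, 0.11 for Aurkaip1, 0.08 for Ict1, which descends from a peptide-release factor, and −0.20 for Gadd45gip1.

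Genes that build, modify and use the mitoribosome were listed apart, and by limma 0 of them were called in either direction. Among 30 genes of assembly and ribosomal RNA modification, 11 had a positive and 19 a negative sign, and in 6 all Atf4AKO libraries were below all Atf4WT libraries, against 8.34% of all tested genes. In 0 of the 30 they were above, against 8.21%. By unadjusted limma p under 0.05, 4 passed, against 9.95% of all tested genes. The median log2 change of the list was −0.09. The 4 of smallest p were Mettl17, Mrm1, Rpusd4 and Ngrn. Mettl17, a methyltransferase-like assembly factor of the small subunit, stood at 4.13, 4.30 and 4.48 FPKM in the Atf4AKO libraries and at 6.60, 5.71 and 5.14 FPKM in the Atf4WT libraries. Mrm1, which methylates the ribosomal RNA of the large subunit, stood at 1.99, 1.75 and 2.16 FPKM in the Atf4AKO libraries and at 2.42, 3.06 and 2.99 FPKM in the Atf4WT libraries. In both the groups were apart, with log2 changes of −0.36 ± 0.12 for Mettl17 and −0.36 ± 0.13 for Mrm1 (SE, n = 3 each) and a limma adjusted p of 0.50 each. Rpusd4, a pseudouridine synthase, and Ngrn, its partner in the assembly of the large subunit, had log2 changes of −0.34 ± 0.13 and −0.50 ± 0.20 (SE, n = 3 each), also with a limma adjusted p of 0.50 each.

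Of 17 mitochondrial translation factors, 7 had a positive and 10 a negative sign, and the list's median log2 change was −0.01, while 1 passed an unadjusted limma p under 0.05 (9.95% of all tested genes did). In 2 of them, Mtfmt and Gatc, all Atf4AKO libraries were below, against 8.34% of all tested genes. Mtfmt, which formylates the initiator transfer RNA, stood at 4.05, 3.10 and 5.15 FPKM in the Atf4AKO libraries and at 5.79, 7.26 and 6.88 FPKM in the Atf4WT libraries. Its log2 change of −0.60 ± 0.18 (SE, n = 3 each) was the most negative of the list, with a limma adjusted p of 0.50. Gatc, a subunit of the amidotransferase that makes glutaminyl transfer RNA, stood at 8.42, 8.27 and 9.55 FPKM in the Atf4AKO libraries and at 10.3, 10.6 and 10.8 FPKM in the Atf4WT libraries. The elongation factor gene Tsfm and the recycling factor gene Mrrf had log2 changes of −0.28 and 0.23, and their groups overlapped.

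Of 19 mitochondrial aminoacyl-tRNA synthetases, 6 had a positive and 13 a negative sign, with a median log2 change of −0.10. In 0 of them did the groups separate, against 8.34% below and 8.21% above of all tested genes, and 0 passed an unadjusted limma p under 0.05, against 9.95%. The 4 of smallest p were Cars2, Ears2, Mars2 and Hars2. Cars2, the cysteinyl synthetase, had 16.1, 13.6 and 87.9 FPKM in the Atf4AKO libraries and 38.8, 89.4 and 77.4 FPKM in the Atf4WT libraries. Atf4AKO 3 lay among the Atf4WT libraries, and the log2 change of −1.22 ± 0.72 (SE, n = 3 each) had a limma adjusted p of 0.541. Ears2, Mars2 and Hars2, the synthetases for glutamate, methionine and histidine, had log2 changes of −0.26, −0.37 and −0.18, and their groups overlapped.

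Of 17 genes of mitochondrial transcription, mitochondrial DNA maintenance and their nuclear regulators, 4 had a positive and 13 a negative sign, and the list's median log2 change was −0.15, while 4 passed an unadjusted limma p under 0.05 (9.95% of all tested genes did). Myc, a regulator of cell growth and ribosome synthesis, stood at 29.7, 38.1 and 21.2 FPKM in the Atf4AKO libraries and at 18.7, 16.4 and 14.7 FPKM in the Atf4WT libraries, the 1 gene of the list with all Atf4AKO libraries above, against 8.21% of all tested genes. Yy1, a zinc-finger factor that binds promoters of mitochondrial genes, stood at 15.4, 15.4 and 17.2 FPKM in the Atf4AKO libraries and at 22.4, 18.5 and 22.4 FPKM in the Atf4WT libraries. The log2 changes were 0.77 ± 0.22 for Myc and −0.38 ± 0.12 for Yy1 (SE, n = 3 each), with a limma adjusted p of 0.50 each. Polg2, the accessory subunit of the mitochondrial DNA polymerase, and Peo1, the mitochondrial DNA helicase now named Twnk, had log2 changes of −0.40 and −0.57. In 3 genes of the list all Atf4AKO libraries were below, against 8.34% of all tested genes.

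Complex I subunits are the nearest comparison, since part of that complex is made by the mitochondrial ribosome. They were taken by symbol, as the 37 nuclear genes named Nduf, then a, b, c, s or v, then a number. This list was not checked against the structure of the complex. The 37 genes averaged −0.06, 0.27 and 0.03 in Atf4AKO 1, 2 and 3, and −0.69, 0.40 and 0.05 in Atf4WT 1, 2 and 3. Atf4WT 1 was the lowest library in 36 of 37 and Atf4WT 2 the highest in 30. The median Atf4WT range was 1.11 for complex I and 0.54 for the mitoribosomal members, and the difference in range between the lists was not tested. With equal sums, complex I averaged −0.06, 0.06 and 0.02 in Atf4AKO 1, 2 and 3, and −0.46, 0.38 and 0.07 in Atf4WT 1, 2 and 3. The 77 tested cytosolic ribosomal proteins, on the values as deposited, averaged 0.16, 0.11 and −0.06 in Atf4AKO 1, 2 and 3, and −0.05, −0.08 and −0.08 in Atf4WT 1, 2 and 3. By limma 0 genes of either list were called in either direction, and 1 gene of each had an unadjusted p under 0.05, against 9.95% of all tested genes. Of the complex I subunits 34 had a positive and 3 a negative sign, with a median log2 change of 0.19. Of the cytosolic ribosomal proteins 72 had a positive and 5 a negative sign, with a median of 0.10, while 50.6% of all tested genes had a positive sign. All Atf4AKO libraries lay above in 0 complex I subunits and 11 cytosolic ribosomal proteins, against 8.21% of all tested genes, and below in 1 and 0, against 8.34%. The cytosolic list depended on the scaling, since with equal sums it averaged 0.17, −0.11 and −0.07 in Atf4AKO 1, 2 and 3, and 0.18, −0.10 and −0.07 in Atf4WT 1, 2 and 3.

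The members are scattered over 17 chromosomes, with at most 10 on 1 chromosome (chromosome 11). In GENCODE vM21, 19 members (24.7%) have a divergent partner, against 10.5% of 11865 tested protein-coding genes. A partner is a protein-coding gene on the other strand that starts within 1000 bp upstream, with a short overlap allowed. Starts further inside the gene were not counted. Of the partners, 17 were tested. They averaged −0.06, −0.18 and 0.02 in Atf4AKO 1, 2 and 3, and −0.05, 0.17 and 0.10 in Atf4WT 1, 2 and 3, and Atf4WT 1 was the lowest library in 5 of the partners and in 14 of the members beside them. Mrpl36 shares its start region with Ndufs6, a complex I subunit, which stood at 203, 259 and 203 FPKM in the Atf4AKO libraries and at 120.5, 265 and 198 FPKM in the Atf4WT libraries. Exons of 30 members (39.0%) share bases with another annotated gene.

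Promoter windows were available for 68 members, 42 of the large and 26 of the small subunit, and for 9611 tested genes. They were searched on both strands for 5 short motifs. The NRF1 core GCATGC, the central part of the site of nuclear respiratory factor 1, was in 19.0% of large-subunit and 3.85% of small-subunit windows, against 10.02% of all tested genes. The ETS core CCGGAAG, of the kind bound by GABPA, was in 31.0% and 42.3%, against 17.9%. The YY1 core AAGATGG was in 16.7% and 23.1%, against 7.21%. The CRE core TGACGT, bound by CREB and ATF factors, was in 14.3% and 7.69%, against 12.0%, and the composite core TGATGCA, bound by dimers of ATF4 with C/EBP factors, was in 0 of 68 windows, against 1.92% of tested genes. The median GC content of the windows was 58.2% for the members and 61.0% for all tested genes. The NRF1 core reads the same on both strands, a CRE core can overlap a CRE core on the other strand, and no motif contains another. A match is a description of letters and not a bound site, and no difference in these shares was tested.

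**Figure D5:**
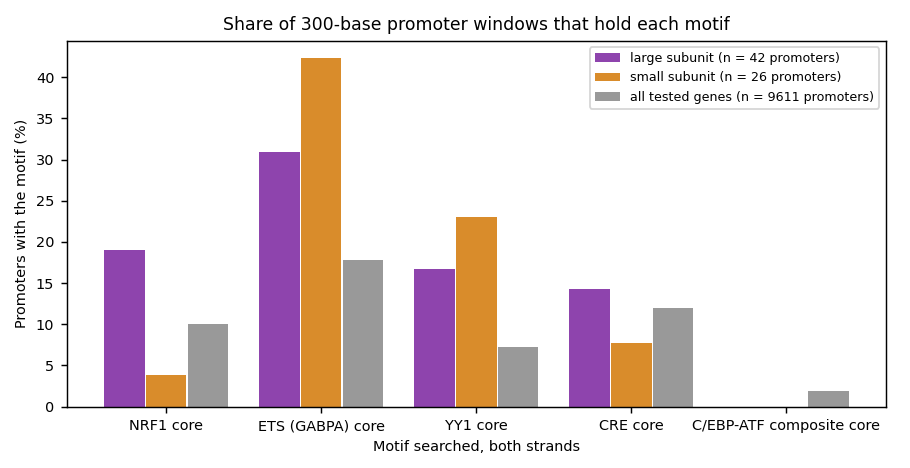
Percent of 300-base promoter windows that hold each motif on either strand, for large-subunit genes (purple, 42 windows), small-subunit genes (orange, 26) and all tested genes (grey, 9611). The ETS core stands in 31.0% and 42.3% of the large- and small-subunit windows against 17.9% of all, and the composite core in none of the members.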

How the data were processed

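Poly(A) RNA libraries were made with a stranded Illumina kit, per the labels' protocols. The authors deposited 1 table of FPKM values per gene symbol and library, on genome build mm10 per the submitters' processing notes. Which aligner, quantifier and annotation they used is not given in the sources used here. An FPKM value rests on an assumed transcript length, on the assignment of shared fragments and on the total of the library. Depth in fragments is unknown, so no counting interval is given. Groups and replicate numbers came from the sample titles.

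Values were analysed as log2(FPKM + 1), which understates changes of low genes. The 12818 genes whose mean FPKM reached 0.5 entered limma 3.58.1 (R 4.3.3; lmFit and eBayes with trend, no covariate), with Benjamini-Hochberg adjustment over all of them and a threshold of 0.05. The scripts were tested on simulated data. Single genes also got an exact two-sided permutation test. Intervals are the 95% intervals of limma. Alternatives covered the pseudocount, filter, scaling, variance model, replicate block, marker covariates and libraries left out. Tables were handled in Python 3.11.15.

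Members named with values were those whose groups did not overlap, the 4 highest and 3 lowest by mean and the 3 of widest range in each subunit, and Mrps18a, Mrps18b, Mrps18c, Mrps30, Mrpl12 and Mrps36. Mrpl40 and Mrpl45 were named after their values were seen, and so were Mrpl36 with Ndufs6 and Mrpl46. Other pathway lists gave the 4 of smallest p. The members and lists were chosen with earlier results of these data known. Positions came from GENCODE vM21 (GRCm38), where the table's symbols were matched by name, and promoters from RefSeq (GRCm38.p6), which had an entry for 68 of the 77 members, with 1 window per gene used. Of these windows 63 held bases of the gene's own transcripts on the strand printed and 0 on the reverse.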

Additional observations from a re-analysis of the deposited data

How the results depend on the processing

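Under all 18 alternatives (pseudocounts of 0.5 and 0.1, no filter or a mean of at least 1 FPKM, equal sums, median-of-ratios scaling, eBayes without trend, the replicate block, muscle or epithelial markers as a covariate, Atf4AKO 3 as the only knockout library, each library left out in turn, and subunits by structure) 0 members were called by limma in either direction. In the alternative fits with more than 1 library per group, only 0 to 3 of all tested genes were called. Counts of members whose groups did not overlap, and signs of single members, did change. With equal sums, the Atf4AKO libraries lay below in 11 large-subunit and 3 small-subunit genes, against 13.9% of all tested genes. With Atf4AKO 3 as the only knockout library, which assumes that this library varies like the others, they lay below in 6 and above in 1 large-subunit gene, and below in 1 small-subunit gene, against 19.4% of all tested genes below and 18.8% above. Leaving out each library in turn gave 3 to 15 large-subunit and 1 to 7 small-subunit genes below, the highest counts without Atf4WT 1. The share of all tested genes below ran between 9.78% and 20.6%, and was 14.8% without Atf4WT 1. Above lay 0 to 10 large-subunit and 0 to 5 small-subunit genes, the highest counts without Atf4WT 2. The share of all tested genes above ran between 9.81% and 20.6%, and was 14.8% without Atf4WT 2. Without Atf4AKO 3, 1 large-subunit and 3 small-subunit genes were above, against 20.6% of all tested genes. The medians for the large and the small subunit were −0.11 and −0.082 with equal sums, where that of all tested genes was −0.13. They were −0.060 and −0.043 with the muscle covariate, −0.040 and −0.033 with the epithelial covariate, and −0.015 and −0.0085 with Atf4AKO 3 alone.

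Of the 24 named members, 7 kept their sign under every one of the 17 alternative fits and 17 changed it at least once, none past the threshold. With median-of-ratios scaling the log2 change of Mrpl1 was 0.00097. With equal sums it was −0.11 for Mrpl20, −0.13 for Mrpl51, −0.082 for Mrps11, −0.017 for Mrps18a and −0.081 for Mrps27. With the muscle covariate it was 0.023 for Mrpl1, −0.11 for Mrpl20, −0.00058 for Mrpl30, −0.0028 for Mrpl51, −0.072 for Mrps11, −0.00045 for Mrps18a and −0.064 for Mrps27. With the epithelial covariate it was −0.091 for Mrpl20, −0.063 for Mrpl51, −0.068 for Mrps11 and −0.033 for Mrps27. With Atf4AKO 3 as the only knockout library it was 0.070 for Mrpl1, 0.012 for Mrpl19, −0.077 for Mrpl20, −0.037 for Mrpl30, −0.011 for Mrpl33, 0.0043 for Mrpl57, −0.10 for Mrps11, −0.043 for Mrps18a, 0.086 for Mrps18b, −0.10 for Mrps18c and −0.065 for Mrps27. Leaving out each library in turn gave −0.037 to 0.034 for Mrpl1, −0.35 to 0.27 for Mrpl12, −0.060 to 0.069 for Mrpl19, −0.18 to 0.20 for Mrpl20, −0.021 to 0.36 for Mrpl30, −0.0059 to 0.32 for Mrpl33, −0.54 to 0.023 for Mrpl34, −0.16 to 0.15 for Mrpl51, −0.11 to 0.18 for Mrps11, −0.19 to 0.11 for Mrps18b, −0.083 to 0.16 for Mrps27, −0.039 to 0.29 for Mrps30, −0.045 to 0.57 for Mrps36 and −0.052 to 0.44 for Mrps5. The cause was not tested.

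The replicate numbers were tried as a block. Deviations of same-numbered libraries from their group means had correlations of 0.082, 0.40 and 0.069 over genes for numbers 1, 2 and 3, so the numbers were not taken to pair the libraries, and not every library was closest to its own number (Atf4AKO 3 and Atf4WT 1 gave 0.19). With the replicate block 0 members and 0 of all genes were called, against 2 of all genes without it. In this balanced design the block leaves every fitted difference as it is. FPKM does not give the number of fragments, so depth behind the low members, such as Mrpl19, is unknown.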
